A study of Homo sapiens with 9 samples.

Results

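The comparison described here is PG/VG vs. control, the transcriptional response of BEAS-2B cells to the condensed aerosol of the e-cigarette carrier liquid alone. It rests on 6 of the 9 libraries of the study, chosen by their treatment labels as 3 libraries of PG/VG-treated cells and 3 libraries of untreated cells. PG/VG is the mixture of propylene glycol and vegetable glycerin, with neither nicotine nor flavor added. The condensate made up 2% of the culture volume and stayed on the cells for 24 h, while control cells received medium only. The remaining 3 libraries came from EC, the condensate of a tobacco-flavored liquid with 18 mg/mL nicotine at the same dilution and time. They entered the filter of genes and the estimate of spread behind every test below. EC levels are given only where the carrier is set beside EC. Replicates are numbered 2, 3 and 4 in each group, and according to the labels the number also marks the batch. All groups share 1 cell line, BEAS-2B, an immortalized human bronchial epithelial line, and 1 serum-containing medium. The condensate also held moisture drawn from the air, which the control cells did not receive, so the moisture and the carrier cannot be told apart.

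Propylene glycol and glycerin are small polyols that carry nicotine and flavor into the aerosol, and their heating yields reactive carbonyls. Cells take up glycerol through aquaglyceroporins and phosphorylate it with glycerol kinase, whereas propylene glycol is oxidized by alcohol and aldehyde dehydrogenases toward lactate. Bronchial epithelium meets inhaled material first and answers foreign nucleic acid through cytosolic sensors that switch on interferon-stimulated genes. Growing cells devote much of their transcription to ribosomes, whose protein genes share a pyrimidine-rich start.

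The epithelial label was checked against marker reads in the 6 libraries. KRT7, a simple-epithelium keratin, had 9069 to 21204 reads and KRT8 had 15168 to 26280. The basal keratins KRT5 and KRT14 had at most 2 reads in any library, GRHL2, a transcription factor of epithelial identity, had 0 in all 6, and CDH1, the epithelial cadherin, had 3 to 29. VIM, the mesenchymal intermediate filament, had 15028 to 23225 reads. Its LFC, the log2 fold change of PG/VG vs. control, was −0.27 (adjusted p = 0.0441), a call lost with library size as the only scaling and when any 1 library other than PG/VG replicate 4 was left out. Of 12 immune and endothelial markers 5 had enough reads to be tested, with 0 called by edgeR or DESeq2 and 1 at an unadjusted p under 0.05, and the summed level of the list was 11.4 to 14.2 CPM in control and 13.5 to 15.3 CPM in PG/VG. Their part in the results below was not tested. The leukocyte markers CD3E and PTPRC had 0 reads and at most 2 reads. Other members of the list were present. CD14 had 58 to 83 reads in control and 117 to 184 in the deeper PG/VG libraries, and CDH5 had 72 to 134 over the 6 libraries. Of the 5 tested, 3 had a positive LFC and 2 a negative one.

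Counts on genes totaled 16168260 to 17882770 in the control libraries and 18427225 to 24882516 in the PG/VG libraries, so each PG/VG library was deeper than each control library. Batch 4 stood apart from batches 2 and 3 on the first principal component, which held 46.6% of the variance over the 9 libraries. The SD of the log2 differences between PG/VG and control over all genes tested was 0.310 in batch 2, 0.278 in batch 3 and 0.305 in batch 4. Tests therefore compared libraries within batches, and levels are given as CPM, the count of a gene scaled to the size of its library. As the RNA came from whole cultures, fewer cells of a state and less RNA per cell cannot be told apart.

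PG/VG exposure shifted many genes by small amounts. Among 16030 genes tested, 727 were differentially expressed (DEGs) at an edgeR quasi-likelihood adjusted p under 0.05, which is 4.54% of the genes tested. Of these, 422 (2.63%) were upregulated and 305 (1.9%) downregulated. The split depended on the setting, as 72.07% of the calls were upregulated with library size as the only scaling, 48.27% with DESeq2 and 34.65% once trends with GC content and transcript length were removed, in place of 58.05%. The median LFC was 0.43 for upregulated genes, a fold of 1.35, and −0.35 for downregulated genes, a fold of 0.787. Only 163 upregulated and 58 downregulated genes reached an absolute LFC of 0.5. The median LFC over all genes tested was 0.01 and the median standard error 0.105. In 725 of the 727 DEGs the direction was the same in each of the 3 batches, and in 421 the CPM ranges of PG/VG and control did not overlap, which was the case for 14.2% of all genes tested. The test compared these same libraries within batches, so both features follow in part from the choice of genes and are no separate support. The number of DEGs was 192 without PG/VG replicate 2, 365 without PG/VG replicate 4, and 389, 299 and 436 without control replicates 2, 3 and 4. With no batch term 1 gene was called. The p-values of the fit with a batch term measure the spread left among 3 biological replicates per group once batch offsets are removed. That spread was estimated over all 9 libraries, EC included.

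Upregulated and downregulated genes differed in kind. Upregulated genes had long transcripts rich in GC, with a median canonical transcript of 4594 bases and 55.5% GC, against 2962 bases and 48.6% over all genes tested. Downregulated genes had a median of 1805 bases and 46.0% GC, and their median control level was 79.6 CPM against 20.3 CPM over all genes tested. Protein-coding genes gave 409 upregulated and 257 downregulated genes of 13052 tested. Among 2234 long noncoding RNAs 10 rose and 24 fell, and among 520 pseudogenes 2 rose and 23 fell. The part of GC content and transcript length in single calls was not tested beyond the fit that removed both trends.

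**Figure D1:**
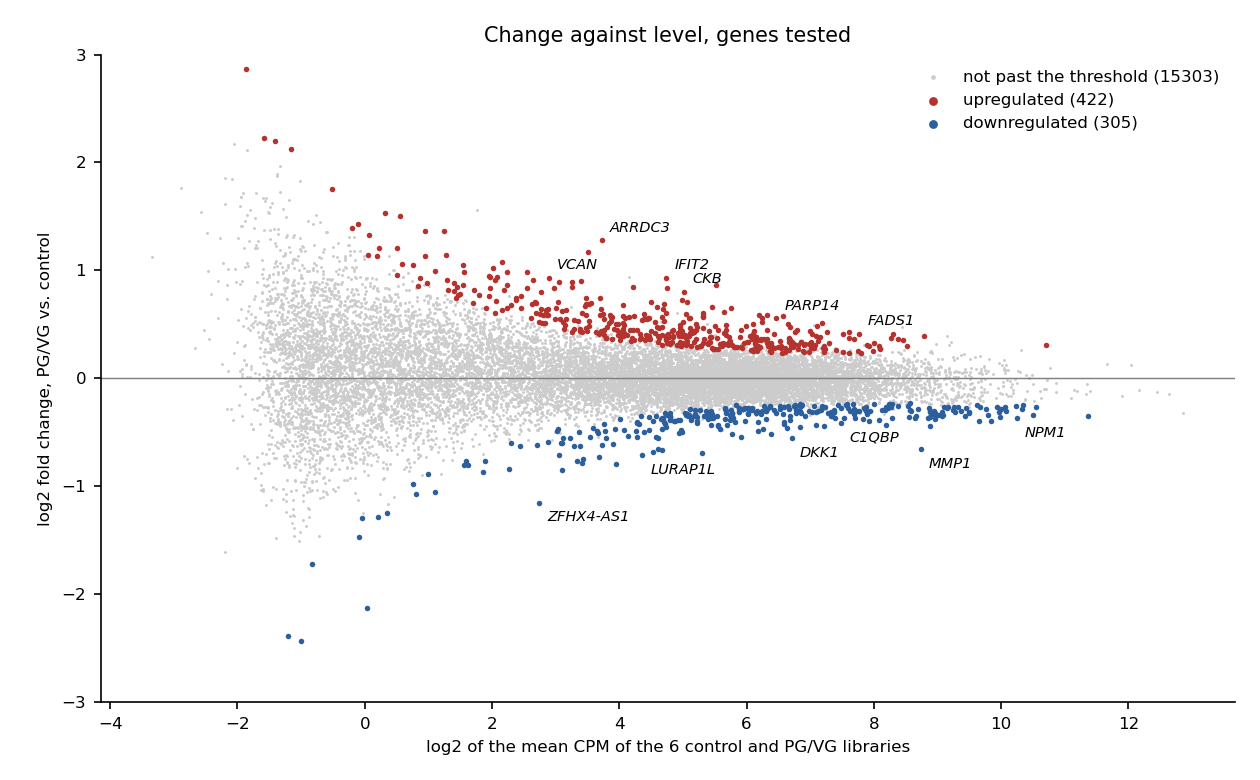
Log2 fold change of PG/VG vs. control (vertical axis) against the log2 of the mean CPM of the 6 libraries (horizontal axis) for the genes tested, with 422 upregulated genes in red and 305 downregulated genes in blue. Upregulated genes reach larger changes at middle and low levels, whereas the downregulated genes form a band of small changes that extends to the most abundant genes.

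ARRDC3, an alpha-arrestin that directs membrane receptors to ubiquitination and degradation, had the smallest p among all genes. Its level was 8.58, 7.74 and 6.92 CPM in control replicates 2, 3 and 4 and 19.1, 16.2 and 20.9 CPM in the PG/VG replicates. Every PG/VG library was thus above every control library, at an LFC of 1.28 ± 0.12 (SE, n = 3 per group, adjusted p = 4.63e-06). Its relatives did not pass the test. ARRDC4, another alpha-arrestin, had an LFC of 0.07 (95% interval −0.14 to 0.29), and TXNIP, the thioredoxin-binding alpha-arrestin that responds to glucose, had 0.08 (−0.10 to 0.26). TXN, encoding thioredoxin itself, fell by 0.30 on the log2 scale (adjusted p = 0.0307), a call lost once the trends with GC content and length were removed (adjusted p = 0.222) and without PG/VG replicate 2 or 4 or control replicate 3 or 4. Over 12 tested alpha-arrestins and genes of the glucose sensor MondoA, 1 rose, 1 fell and the median LFC was 0.06. The share called was 16.7%, against 4.54% of all genes tested.

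Interferon-stimulated genes formed the most extensively upregulated group. Of 45 tested, 24 were upregulated and 0 downregulated, 43 had a positive LFC and the median was 0.42, against 2.63% upregulated and a median of 0.01 over all genes tested. These genes are switched on through the interferon-stimulated response element (ISRE) of their promoters. The sequences below show such elements just upstream of the start site of the 4 upregulated genes of the list with the smallest p that hold one, on the gene's strand in GRCh38.p14 as given by RefSeq, with matches to GAAANNGAAA on either strand in capitals.
IFIT3, chr10:89327833-89327892, plus strand: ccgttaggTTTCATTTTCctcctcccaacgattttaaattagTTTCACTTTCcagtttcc
PARP14, chr3:122680779-122680838, plus strand: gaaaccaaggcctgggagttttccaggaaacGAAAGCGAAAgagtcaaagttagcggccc
OAS3, chr12:112938414-112938473, plus strand: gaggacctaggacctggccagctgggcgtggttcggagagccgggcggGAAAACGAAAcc
SAMD9, chr7:93118081-93118140, minus strand: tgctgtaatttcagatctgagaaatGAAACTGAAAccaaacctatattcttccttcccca

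A RefSeq window of 300 bases, from 250 before to 50 after the start site, existed for 35 of the 45 genes, and 20 of these 35 held GAAANNGAAA on either strand. Among the upregulated genes of the list with a window, 13 of 19 held it. The same letters stood in 3.65% of the 27305 windows of all genes. IFIT2, OASL and STING1 had no window. A match of letters is a description of the sequence and shows no binding.

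IFIT2, which binds viral RNA and restrains its translation, stood at 12.1, 9.66 and 32.5 CPM in control replicates 2, 3 and 4 and at 21.5, 17.6 and 66.9 CPM in the PG/VG replicates. PG/VG was higher in each batch, although the ranges overlapped because both libraries of batch 4 were high. Its LFC was 0.93 ± 0.10 (adjusted p = 1.75e-05). The neighboring family member IFIT3, a partner of the IFIT complex, had 22.0, 18.3 and 52.2 CPM in control and 31.5, 32.5 and 117 CPM in PG/VG, with an LFC of 0.87 ± 0.10 (adjusted p = 3.46e-05). OASL, an oligoadenylate synthetase-like protein that enhances RIG-I signaling, went from 4.64, 4.89 and 11.3 CPM to 9.91, 10.5 and 27.1 CPM (LFC 1.17 ± 0.13, adjusted p = 3.46e-05). In these 3 genes batch 4 had the highest level in either group.

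PARP14, a mono-ADP-ribosyltransferase induced by interferon, showed the rise without that offset between batches. Control libraries were at 77.3, 71.4 and 65.9 CPM and PG/VG libraries at 108, 104 and 103 CPM, so the ranges did not overlap (LFC 0.56 ± 0.08, adjusted p = 0.000351). STING1, a gene outside the list and the endoplasmic reticulum adaptor that relays the signal of the cytosolic DNA sensor cGAS, rose from 21.5, 26.7 and 28.3 CPM to 37.8, 39.8 and 46.8 CPM, also without overlap (LFC 0.70 ± 0.09, adjusted p = 0.000123). Each of these 5 genes kept its call when any 1 library was left out.

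The size of the interferon group response differed between batches, with a median log2 difference of 0.21 in batch 2, 0.59 in batch 3 and 0.51 in batch 4. The number upregulated was 26 with the trends of GC content and length removed and 23 without PG/VG replicate 2. It was 15 without PG/VG replicate 3 or without control replicate 3 and 12 without PG/VG replicate 4, against 24 with all libraries. In EC vs. control, which shares the control libraries, the median LFC was 0.44 and 29 were upregulated, and 0 of the 45 passed the edgeR test of EC vs. PG/VG, 7 of them at an unadjusted p under 0.05, where 0.855% of all genes tested were called.

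**Figure D2:**
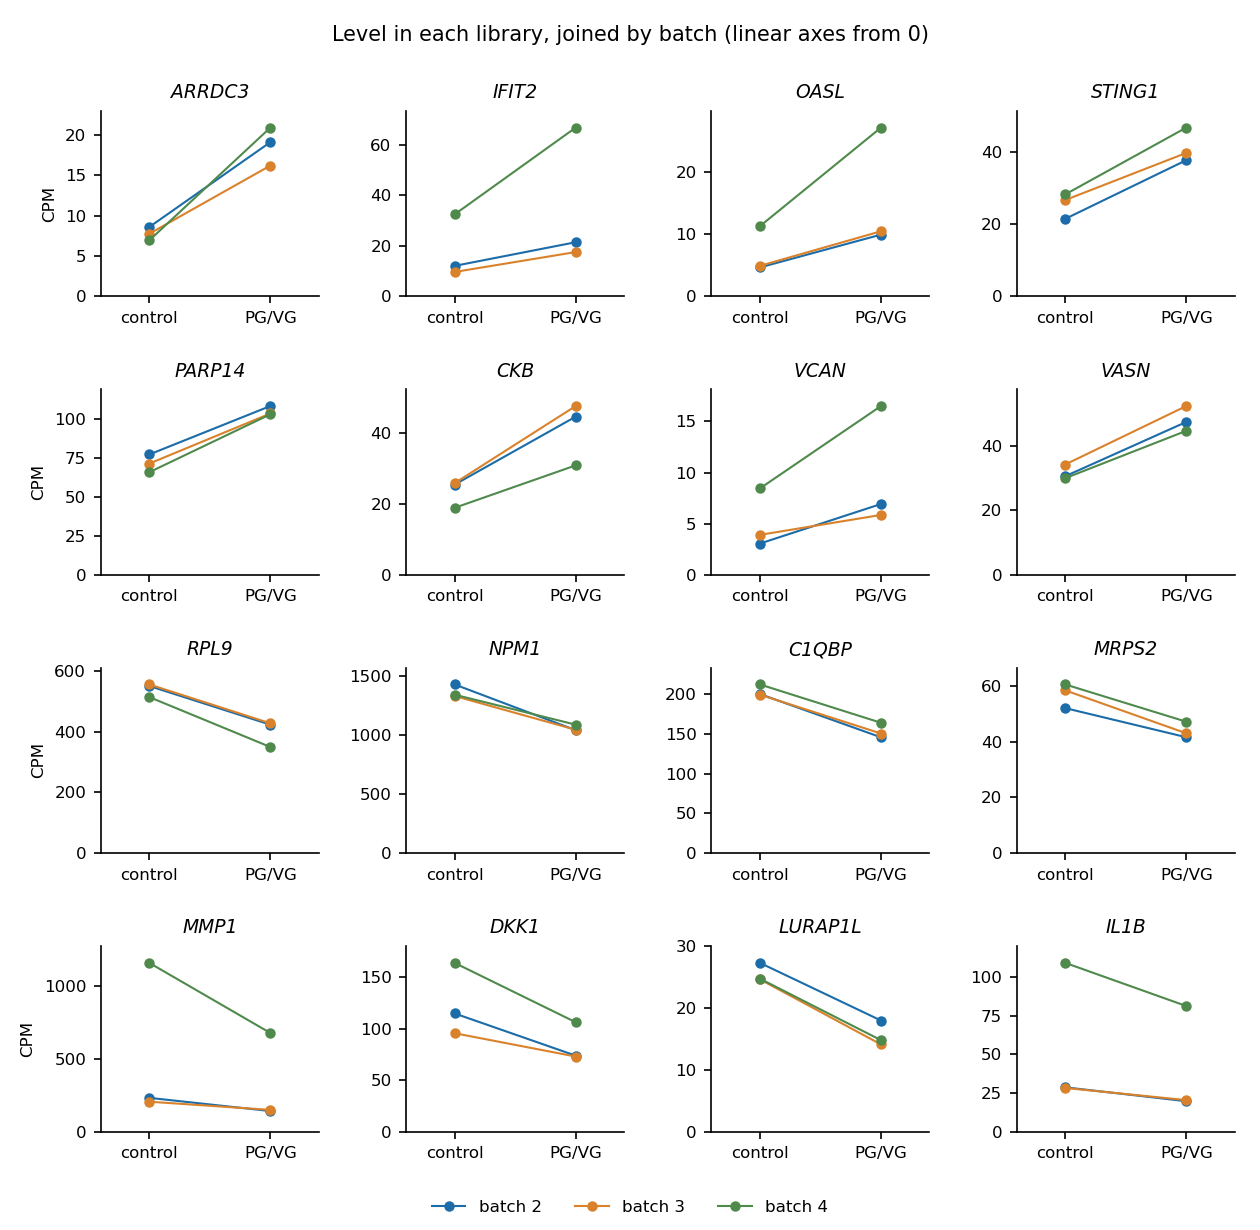
CPM of 16 genes in each control and PG/VG library on linear axes from 0, with lines joining the libraries of a batch and colors marking batches 2, 3 and 4. The lines of the upper 8 genes rise and those of the lower 8 fall in all 3 batches, while IFIT2, OASL, MMP1 and IL1B have much higher levels in batch 4 than in batches 2 and 3 in both groups.

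Other genes with a small p among the upregulated came from no single list. CLSTN3, a calsyntenin of the cadherin superfamily, rose from 32.5, 40.3 and 53.6 CPM to 57.7, 61.7 and 77.3 CPM, without overlap (LFC 0.65 ± 0.08, adjusted p = 9.56e-05). CKB, the brain-type creatine kinase that buffers ATP, rose from 25.5, 25.9 and 18.9 CPM to 44.7, 47.7 and 30.9 CPM (LFC 0.80 ± 0.10, adjusted p = 0.000133). B4GALNT1, the synthase of the gangliosides GM2 and GD2, rose from 31.4, 38.0 and 33.4 CPM to 58.9, 53.9 and 49.5 CPM (LFC 0.66 ± 0.08, adjusted p = 0.000133), with 27.1% of its exon length overlapping another gene. TRANK1 rose from 11.6, 12.8 and 15.4 CPM to 22.3, 23.3 and 25.7 CPM (LFC 0.84 ± 0.10, adjusted p = 3.48e-05). The groups did not overlap for any of these 4 genes.

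Several of the largest rises concerned genes with low counts. ANGPTL4, a secreted inhibitor of lipoprotein lipase, rose from 3.05, 3.10 and 5.57 CPM to 5.24, 6.29 and 11.7 CPM (LFC 0.98 ± 0.18, adjusted p = 0.0024). KAZALD1, a secreted Kazal-domain protein, went from 3.75, 2.97 and 2.65 CPM to 7.09, 7.66 and 4.16 CPM (LFC 0.99 ± 0.17, adjusted p = 0.00184). MAP1A, a microtubule-associated protein of neurons, had an LFC of 0.95 ± 0.19 (adjusted p = 0.00431). NGFR, the low-affinity neurotrophin receptor, had 4.96, 3.72 and 4.28 CPM in control and 7.29, 8.15 and 9.01 CPM in PG/VG (LFC 0.92 ± 0.17, adjusted p = 0.00309), with 27.2% of its exon length overlapping another gene. The ranges overlapped for ANGPTL4, where batch 4 was higher in both groups, and were separate for the other genes.

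Many ribosomal protein genes fell by small amounts. The 79 cytosolic ribosomal protein genes all had a negative LFC, 46 were downregulated and 0 upregulated, and the median was −0.29, against 1.9% downregulated over all genes tested. The median difference was −0.19 in batch 2, −0.23 in batch 3 and −0.42 in batch 4. Many mRNAs of this group begin with a C followed by a run of pyrimidines, the terminal oligopyrimidine (TOP) tract through which mTOR and LARP1 set their translation. The stretches below run from 12 bases before the annotated start to 18 bases from it and are shown for downregulated genes with a pyrimidine run near the start, with its first match to CTTTC or CTTTT in capitals.
RPL9, chr4:39458905-39458934, minus strand: cgtaatgacgacagacgttCTTTCtttgct
RPS13, chr11:17077650-17077679, minus strand: cactctcgctctcCTTTCgttgcctgatcg
RPL21, chr13:27251546-27251575, plus strand: ccccgcctCTTTCctttcggccggaaccgc
NPM1, chr5:171387837-171387866, plus strand: ggagcctgcgtcCTTTCcctggtgtgattc

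A window was present for 63 of the 79 ribosomal protein genes, and CTTTC or CTTTT lay between 10 bases before and 16 bases after the start in 41 of them, or 65.1%, on the strand of the gene. The share was 21.4% for translation factors, 9 of 42, and 6.64% for all 27305 windows.

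RPL9, a protein of the large subunit, had 550, 556 and 514 CPM in control replicates 2, 3 and 4 and 423, 427 and 349 CPM in PG/VG (LFC −0.44 ± 0.07, adjusted p = 0.00094). RPS13, of the small subunit, went from 335, 342 and 332 CPM to 262, 264 and 223 CPM (LFC −0.44 ± 0.07, adjusted p = 0.00115). RPL21, of the large subunit, went from 451, 432 and 385 CPM to 349, 336 and 303 CPM (LFC −0.36 ± 0.07, adjusted p = 0.00351). In all 3 genes the groups did not overlap, and each kept its call when any 1 library was left out. RPL22L1, a paralog of RPL22 outside the core ribosome list, fell by 0.52 on the log2 scale ± 0.08 (adjusted p = 0.000478), from 73.3, 77.8 and 42.3 CPM to 53, 52.3 and 29.6 CPM.

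The number of downregulated ribosomal protein genes depended on single libraries. It was 15 without PG/VG replicate 2, 22 without PG/VG replicate 4, 20 without control replicate 3 and 11 without control replicate 4, in place of 46. With the trends of GC content and length removed 49 were called, at a median LFC of −0.22. EC vs. control, with the same control libraries, gave 49 downregulated genes and a median of −0.28, and 0 of the 79 passed the edgeR test of EC vs. PG/VG, with 0 at an unadjusted p under 0.05.

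Processed pseudogenes of ribosomal proteins, whose reads cannot be separated with certainty from those of the parent genes, were among the DEGs with the smallest p. RPS15P4 had 19.8, 19.2 and 19.7 CPM in control and 10.9, 12.9 and 10.3 CPM in PG/VG (LFC −0.80 ± 0.12, adjusted p = 0.000429). RPL36AP37 fell by 0.69 and RPL3P4 by 0.66 on the log2 scale. Of 91 tested pseudogenes named after ribosomal proteins, 17 were downregulated and 1 upregulated, at a median LFC of −0.39.

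Among 51 translation initiation and elongation factors 10 (19.6%) were downregulated, against 1.9% of all genes tested, and 0 upregulated, with a median LFC of −0.16. EEF1B2, the guanine nucleotide exchange subunit of elongation factor 1, stood at 336, 322 and 263 CPM in control and 256, 261 and 192 CPM in PG/VG, so the groups did not overlap (LFC −0.38 ± 0.07, adjusted p = 0.002). EIF4EBP1, the mTOR-regulated repressor of cap-dependent initiation, fell in each batch, from 279, 289 and 132 CPM to 216, 239 and 94.4 CPM (LFC −0.37 ± 0.07, adjusted p = 0.00464). EEF1E1, a scaffold protein of the tRNA synthetase complex, fell by 0.48 (adjusted p = 0.00568), a call lost without PG/VG replicate 2 (adjusted p = 0.0821). Once the GC and length trends were removed, 21 of the list were downregulated. The list count was 2 without PG/VG replicate 2 and 4 without any 1 of the control replicates.

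Of 129 ribosome biogenesis factors 17 (13.2%) were downregulated, against 1.9% of all genes tested, and 0 upregulated, with 106 negative LFCs and a median of −0.14. NPM1, the nucleolar chaperone of ribosome assembly, had 1430, 1332 and 1343 CPM in control and 1042, 1046 and 1089 CPM in PG/VG (LFC −0.37 ± 0.07, adjusted p = 0.00351). EXOSC5, a subunit of the RNA exosome that trims ribosomal RNA precursors, fell by 0.47 ± 0.09 (adjusted p = 0.00399). Neither gene was called without PG/VG replicate 2 (adjusted p = 0.0592 and 0.0725). After removal of the GC and length trends 41 of the list were downregulated. By edgeR 0 members of the list were called without that library, 3 were called without control replicate 3 and 8 without PG/VG replicate 4 or control replicate 2.

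**Figure D3:**
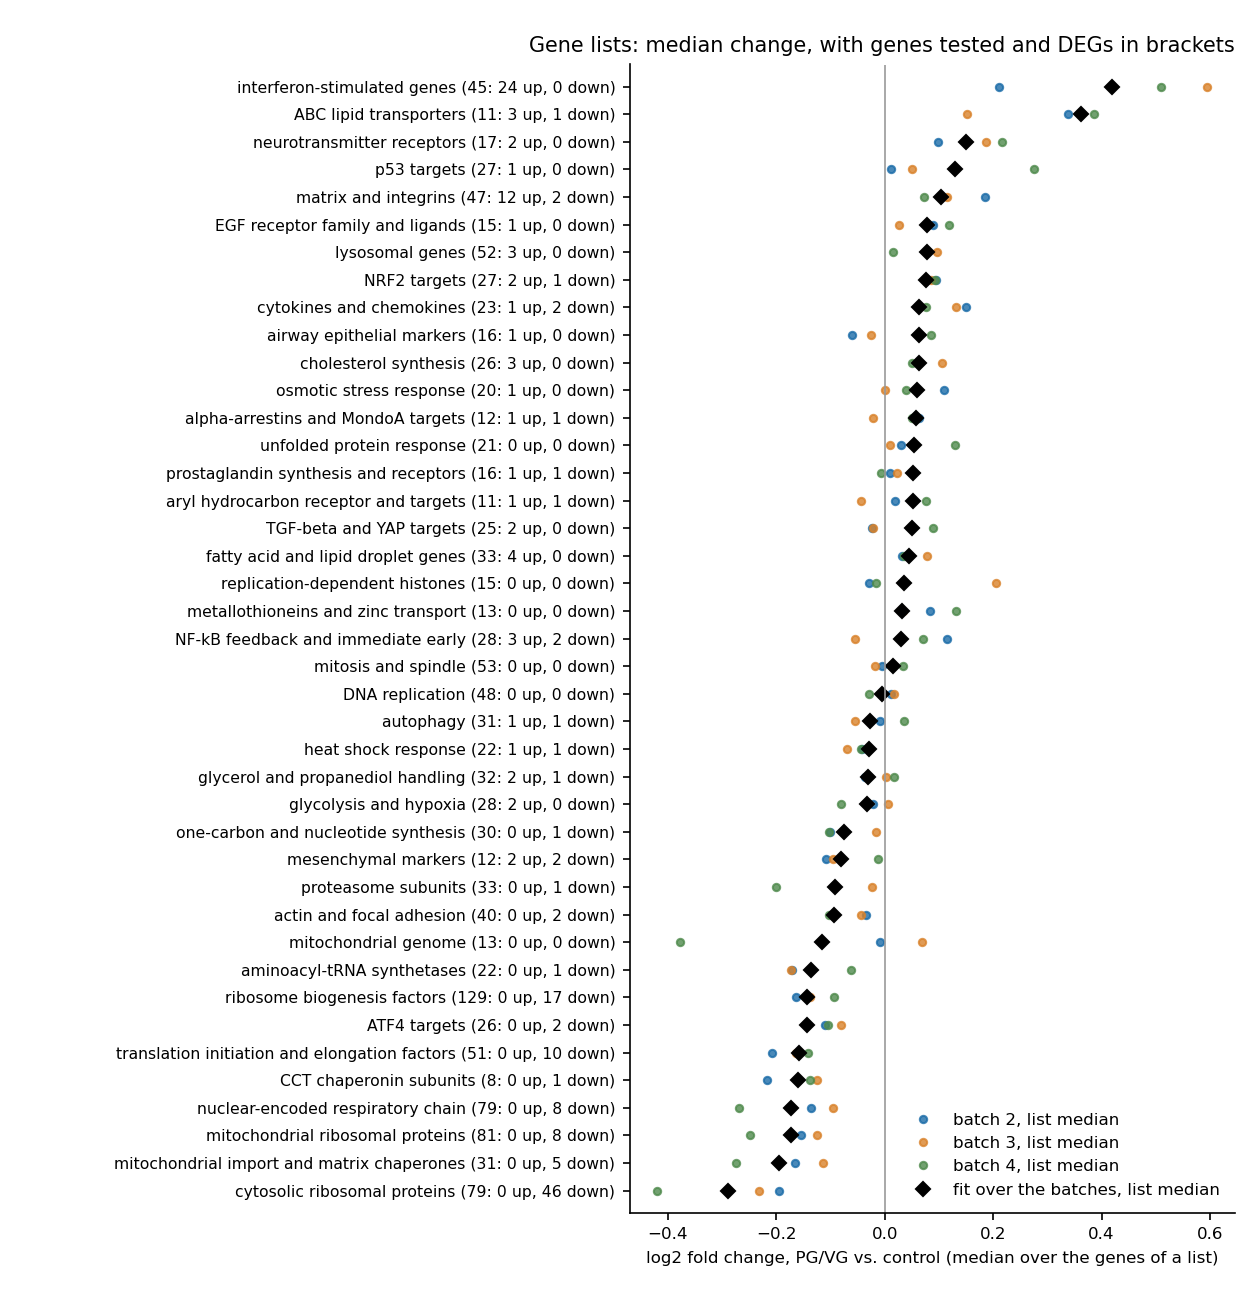
Median log2 fold change of PG/VG vs. control for each gene list with at least 8 genes tested, with black diamonds for the fit over the batches and colored points for the median differences within batches 2, 3 and 4. Brackets give the genes tested and the DEGs in each direction. Interferon-stimulated genes lie highest, at 0.42, and cytosolic ribosomal proteins lowest, at −0.29, with all 3 batches on the same side of 0 for both.

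Mitochondrial genes encoded in the nucleus lay mostly below 0. Most were not called, yet with all libraries the share downregulated was above the 1.9% of all genes tested. Of 81 mitochondrial ribosomal proteins 78 had a negative LFC and 8 (9.88%) were downregulated, at a median of −0.17. At an unadjusted p under 0.05 there were 38, and ComBat-Seq with DESeq2 called 29. MRPS2, of the small mitochondrial subunit, went from 52.0, 58.3 and 60.5 CPM to 41.5, 42.9 and 47.1 CPM without overlap (LFC −0.38 ± 0.08, adjusted p = 0.00725). MRPL4, of the large subunit, fell by 0.36 ± 0.08 (adjusted p = 0.00798), with 21.3% of its exon length overlapping another gene. Both calls were lost without PG/VG replicate 2 (adjusted p = 0.0666 and 0.057) and without control replicate 3, and that of MRPL4 also without PG/VG replicate 4.

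Of 79 nuclear-encoded respiratory chain genes tested, 72 had a negative LFC and 8 (10.1%) were downregulated, at a median of −0.17. At an unadjusted p under 0.05 there were 38, and ComBat-Seq with DESeq2 called 31. ATP5F1D, the delta subunit of ATP synthase, had 49.3, 56.5 and 49.8 CPM in control and 39.6, 44.7 and 37.8 CPM in PG/VG (LFC −0.35 ± 0.09, adjusted p = 0.0225), and ATP5PB, a subunit of its stalk, fell by 0.28 ± 0.07 (adjusted p = 0.0201). Both calls were lost without PG/VG replicate 2 and without control replicate 3 or 4, that of ATP5F1D also without PG/VG replicate 4 and that of ATP5PB also without control replicate 2. With the GC and length trends removed 12 respiratory chain genes were downregulated. By edgeR 0 mitochondrial ribosomal proteins and 0 respiratory chain genes were called without PG/VG replicate 2, and 1 and 1 without control replicate 3. Without PG/VG replicate 4 the counts were 5 and 3, without control replicate 2 they were 8 and 4, and without control replicate 4 they were 4 and 1, while 14 respiratory chain genes were called without PG/VG replicate 3.

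C1QBP, a matrix protein needed for mitochondrial translation, was the firmest of the mitochondrial import and matrix genes. It had 200, 200 and 213 CPM in control and 146, 151 and 164 CPM in PG/VG, with no overlap, and it kept its call when any 1 library was left out (LFC −0.41 ± 0.07, adjusted p = 0.00151). HSPA9, the matrix chaperone mortalin that drives protein import, fell by 0.27 ± 0.07 (adjusted p = 0.0183), a call lost without replicate 2 or 3 of either group. Of the 31 genes on this list 5 (16.1%) were downregulated and 28 had a negative LFC, at a median of −0.19. At an unadjusted p under 0.05 there were 16, and ComBat-Seq with DESeq2 called 13. By edgeR 1 was called without PG/VG replicate 2, 3 without PG/VG replicate 4 and 2 without either control replicate 3 or 4. Once the GC and length trends were removed, 8 were downregulated.

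The 13 protein-coding genes of the mitochondrial genome gave 0 calls by edgeR or DESeq2, with 4 at an unadjusted p under 0.05 and 1 call by ComBat-Seq with DESeq2, and their median LFC was −0.11. Without PG/VG replicate 3 edgeR called 4 of them and without PG/VG replicate 4 it called 1. The batches went apart, with median differences of −0.01 in batch 2, 0.07 in batch 3 and −0.38 in batch 4. MT-ND2, a subunit of complex I, had 675, 829 and 873 CPM in control and 571, 764 and 644 CPM in PG/VG, an LFC of −0.26 (95% interval −0.44 to −0.09, adjusted p = 0.0776).

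Most protein folding and stress genes were not called. The share called ran from 0% in the unfolded protein response and metallothionein lists to 12.5% in the CCT list, against 4.54% of all genes tested. All 8 subunits of the CCT chaperonin, which folds actin and tubulin, had a negative LFC at a median of −0.16, and CCT8 was called (LFC −0.24 ± 0.07, adjusted p = 0.0472). This call was lost when any 1 library was left out and with library size as the only scaling, while 3 subunits were downregulated with the GC and length trends removed, 2 were called by DESeq2 and 4 by ComBat-Seq with DESeq2. Of 22 aminoacyl-tRNA synthetases 20 had a negative LFC and 1 was downregulated, VARS1, the valyl-tRNA synthetase (LFC −0.31 ± 0.07, adjusted p = 0.0108), a call lost without PG/VG replicate 2 or control replicate 3, while 9 of the list were downregulated with the GC and length trends removed and 2 were called without control replicate 4. Among 26 target genes of ATF4, the factor of the integrated stress response, 2 were downregulated and 0 upregulated. These were CEBPB (LFC −0.31 ± 0.07, adjusted p = 0.0171) and DDIT3, encoding CHOP (LFC −0.35 ± 0.10, adjusted p = 0.0472), and both calls were lost without PG/VG replicate 2 or 4 or control replicate 3. DDIT3, with 39.6% of its exon length overlapping another gene, also lost its call without control replicate 2, with library size as the only scaling and with the GC and length trends removed, where 8 of the 26 were downregulated. The list had 4 calls without PG/VG replicate 3, 3 without control replicate 4, 1 without control replicate 2 and 0 by edgeR without any 1 of the remaining libraries, against 14 at an unadjusted p under 0.05 with all libraries.

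The unfolded protein response list had 0 calls by edgeR or DESeq2 among 21 genes tested, with 6 at an unadjusted p under 0.05 and 3 calls by ComBat-Seq with DESeq2, and a median LFC of 0.05. After removal of the GC and length trends 1 rose and 1 fell, and 2 were called without control replicate 4. Metallothionein and zinc transport genes had 0 of 13 called by any of these tools, 1 at an unadjusted p under 0.05, and a median of 0.03. Among 27 NRF2 targets, the antioxidant program, 2 rose and 1 fell, at a median of 0.08. The member with the smallest p was EPHX1, the microsomal epoxide hydrolase, with an LFC of 0.38 ± 0.08 (adjusted p = 0.00907), lost without PG/VG replicate 2 or 4 or control replicate 2. The number of NRF2 targets called was 0 to 2 with 1 library left out, and 3 rose and 1 fell with the GC and length trends removed. Of 22 heat shock genes 1 rose and 1 fell, with 0 or 1 called when 1 library was left out and 1 upregulated and 2 downregulated with the GC and length trends removed. HSPA4L, a relative of HSP110 that is also induced by osmotic stress, rose by 0.33 ± 0.08 (adjusted p = 0.0167) and was the only call among 20 osmotic stress genes. This call was lost without replicate 2 or 4 of PG/VG and without replicate 3 or 4 of control.

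Cell cycle genes gave 0 calls at the same threshold with all libraries. In the edgeR test 0 of 53 mitosis and spindle genes, 0 of 48 DNA replication genes and 0 of 15 replication-dependent histone genes passed, and DESeq2 also called 0. At an unadjusted p under 0.05 there were 12, 5 and 1 genes, ComBat-Seq with DESeq2 called 6, 2 and 0, and the median LFCs were 0.01, −0.00 and 0.04. With the GC and length trends removed 3 mitosis and spindle genes rose and 1 fell and 2 DNA replication genes fell, and without control replicate 4 edgeR called 1 mitosis and spindle gene. For genes above 10 CPM in control, 9633 in all, the 95% interval of an LFC reached a median of 0.171 to either side, and the smallest absolute LFC called over all genes was 0.23.

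Most genes that handle the carrier itself were not called, at a called share of 9.38% against 4.54% of all genes tested. Of 45 listed genes for uptake and metabolism of glycerol and propylene glycol, 32 had enough reads to be tested, 2 were upregulated and 1 downregulated, at a median LFC of −0.03. ALDH3B1, an aldehyde dehydrogenase for lipid-derived aldehydes, rose from 56.0, 65.2 and 31.8 CPM to 82.8, 83.0 and 43.0 CPM. It was higher in each batch, at an LFC of 0.45 ± 0.08 (adjusted p = 0.00216), and kept its call when any 1 library was left out. LPIN3, a phosphatidate phosphatase of glycerolipid synthesis, rose by 0.40 ± 0.09 (adjusted p = 0.0118), a call lost without PG/VG replicate 2 (adjusted p = 0.0517) and without replicate 4 of either group. LDHB, the lactate dehydrogenase subunit that favors oxidation of lactate, fell by 0.32 ± 0.08 (adjusted p = 0.0287), but the call was lost with the GC and length trends removed (adjusted p = 0.0524) and without replicate 2 or 3 of either group, and 33.4% of its exon length overlaps another gene.

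Sterol and desaturase genes rose in part. TM7SF2, a sterol reductase of cholesterol synthesis, rose from 9.91, 12.1 and 21.6 CPM to 15.97, 19.97 and 27.2 CPM (LFC 0.57 ± 0.11, adjusted p = 0.00351). PG/VG was higher in each batch, the ranges overlapped, and the call was kept when any 1 library was left out. Over the 26 genes of the cholesterol list, 3 (11.5%) were upregulated, against 2.63% of all genes tested. The median LFC was 0.06, so the list as a whole stayed close to the 0.01 of all genes tested.

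The desaturases FADS1 and FADS2, which make long polyunsaturated fatty acids, rose by 0.41 ± 0.08 each (adjusted p = 0.00351 and 0.00437). FADS1 went from 171, 169 and 221 CPM to 231, 227 and 287 CPM, without overlap, and FADS2 from 131, 126 and 223 CPM to 178, 180 and 267 CPM. Without PG/VG replicate 2 neither was called (adjusted p = 0.0582 and 0.0584). Among 33 genes of fatty acid metabolism and lipid droplets, 4 (12.1%) were upregulated, against 2.63% of all genes tested, and 0 downregulated, at a median of 0.05. Once the GC and length trends were removed, 3 rose and 3 fell, at a median of −0.01, and without PG/VG replicate 2 the list had 1 call.

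ABC transporters of lipids gave 3 upregulated and 1 downregulated of 11 tested, or 36.4% called against 4.54% of all genes tested. The median LFC was 0.36, and 0.26 with the GC and length trends removed. ABCA3, the phospholipid transporter of lamellar bodies, rose from 39.3, 45.1 and 42.8 CPM to 58.7, 62.4 and 57.3 CPM, without overlap (LFC 0.49 ± 0.07, adjusted p = 0.0006), and kept its call when any 1 library was left out. ABCA7, a phospholipid exporter, rose by 0.45 ± 0.10 (adjusted p = 0.00898), a call lost with the trends removed (adjusted p = 0.0681) and without PG/VG replicate 2 or 4 or control replicate 4. ABCA5 fell by 0.38 ± 0.08 (adjusted p = 0.00785), lost without replicate 2 of either group. The list had 1 call without PG/VG replicate 2 and 2 calls without PG/VG replicate 4 or control replicate 2, in place of 4.

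Lysosomal genes had 3 upregulated and 0 downregulated of 52 tested, at a median of 0.08. The share called, 5.77%, was close to the 4.54% of all genes tested. FUCA1, the lysosomal fucosidase, rose from 18.8, 18.6 and 40.2 CPM to 28.1, 27.1 and 52.6 CPM (LFC 0.49 ± 0.09, adjusted p = 0.00216) and kept its call when any 1 library was left out. SMPD1, acid sphingomyelinase, rose by 0.38 ± 0.08 (adjusted p = 0.00808). After removal of the GC and length trends 6 of the list rose and 1 fell. The call of SMPD1 was lost without PG/VG replicate 4 or control replicate 2. The list then had 1 call in place of 3.

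Matrix and integrin genes moved in both directions. Of 47 tested, 12 were upregulated and 2 downregulated, at a median LFC of 0.10. These calls made up 29.79% of the genes tested in the list, against 4.54% called over all genes tested. With the GC and length trends removed the counts were 9 and 6 and the median 0.03. VCAN, the large matrix proteoglycan versican, rose from 3.05, 3.90 and 8.44 CPM to 6.92, 5.85 and 16.5 CPM (LFC 0.93 ± 0.15, adjusted p = 0.00103). SULF2, which trims sulfates from extracellular heparan sulfate, rose from 44.5, 54.2 and 72.4 CPM to 73.7, 68.8 and 96.96 CPM (LFC 0.50 ± 0.08, adjusted p = 0.00111). In both genes PG/VG was higher in each batch, and the ranges overlapped.

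ITGB4, the integrin subunit of hemidesmosomes, rose from 131, 143 and 118 CPM to 192, 194 and 146 CPM without overlap (LFC 0.43 ± 0.07, adjusted p = 0.00165). COL7A1, the collagen of anchoring fibrils, rose by 0.45 ± 0.08 (adjusted p = 0.0016). MMP1, the interstitial collagenase, went the other way, from 232, 205 and 1158 CPM to 141, 149 and 676 CPM (LFC −0.66 ± 0.09, adjusted p = 0.000351). PG/VG was lower in each batch, while the level of MMP1 in batch 4 was several times that in the other batches. These 5 genes kept their calls when any 1 library was left out, whereas the number called over the list was 6 without PG/VG replicate 2, control replicate 2 or control replicate 3, in place of 14.

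VASN, a membrane protein whose shed part binds TGF-beta, rose from 30.5, 34.1 and 29.9 CPM to 47.3, 52.2 and 44.6 CPM, without overlap (LFC 0.61 ± 0.08, adjusted p = 0.000169). SMAD6, an inhibitor of BMP signaling, rose from 11.6, 14.2 and 5.80 CPM to 20.8, 19.5 and 8.02 CPM (LFC 0.60 ± 0.11, adjusted p = 0.00349), a call lost without replicate 2 of either group. They were the 2 calls (8%) among 25 genes of the TGF-beta and YAP list, against 4.54% of all genes tested. The median LFC of the list was 0.05. Once the GC and length trends were removed, 2 rose and 3 fell, at a median of −0.02. The list had 4 calls without control replicate 4 and 1 without replicate 2 of either group.

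The downregulated genes with the smallest p included secreted signals and a coagulation factor. LURAP1L fell from 27.3, 24.7 and 24.8 CPM to 18.0, 14.1 and 14.8 CPM, without overlap (LFC −0.71 ± 0.09, adjusted p = 0.000176). DKK1, a secreted inhibitor of Wnt signaling, fell from 115, 95.7 and 164 CPM to 73.9, 73.0 and 106 CPM (LFC −0.55 ± 0.07, adjusted p = 0.000178). SNAPC1, a subunit of the complex that starts transcription of small nuclear RNAs, fell from 101, 89.9 and 106 CPM to 70.5, 66.5 and 70.4 CPM (LFC −0.51 ± 0.07, adjusted p = 0.000266), with 21.8% of its exon length overlapping another gene.

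F3, tissue factor, the cellular trigger of blood coagulation, fell from 160, 151 and 202 CPM to 123, 108 and 149 CPM (LFC −0.44 ± 0.07, adjusted p = 0.000569). ZFHX4-AS1, an antisense RNA, fell by 1.15 ± 0.17 (adjusted p = 0.000429), from 10.9, 10.4 and 6.25 CPM to 4.42, 5.96 and 2.36 CPM. Of its exon length 0% overlaps exons of another gene. Since no strand setting is given, its reads may still not be separable from opposite-strand reads outside annotated exons. The groups did not overlap for LURAP1L, SNAPC1, F3 and ZFHX4-AS1, and DKK1 was lower in each batch. All 5 kept their calls when any 1 library was left out.

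Cytokine genes split. CSF1, the macrophage growth factor, rose from 36.0, 34.2 and 49.8 CPM to 49.5, 48.1 and 64.8 CPM, higher in each batch (LFC 0.44 ± 0.08, adjusted p = 0.00176). IL1B, encoding the inflammatory cytokine IL-1 beta, fell from 28.7, 28.3 and 109 CPM to 19.7, 20.4 and 81.4 CPM (LFC −0.47 ± 0.10, adjusted p = 0.00856). IL1A, encoding its relative IL-1 alpha, fell from 17.7, 13.6 and 17.8 CPM to 9.05, 9.85 and 14.9 CPM (LFC −0.55 ± 0.12, adjusted p = 0.0115). Both were lower in each batch with overlapping ranges, and both calls were lost without PG/VG replicate 2 (adjusted p = 0.0876 and 0.166), that of IL1B also without control replicate 4 and that of IL1A also without control replicate 2. Of 23 cytokines and chemokines tested these 3 were the calls, or 13.0% against 4.54% of all genes tested. The list had 1 call without PG/VG replicate 2, and its median was 0.06.

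Feedback and early response genes of NF-kB gave 3 upregulated and 2 downregulated of 28 tested, at a median of 0.03. The share called was 17.9%, against 4.54% of all genes tested, and the number called was 1 to 5 with 1 library left out. After removal of the GC and length trends 3 rose and 3 fell, at a median of −0.03. NFKB2, the precursor of p52 in the alternative NF-kB pathway, rose from 62.3, 70.8 and 51.0 CPM to 85.5, 90.7 and 64.5 CPM (LFC 0.38 ± 0.08, adjusted p = 0.00576), a call lost without PG/VG replicate 2 (adjusted p = 0.058). JUN, a subunit of AP-1, fell from 242, 249 and 263 CPM to 216, 200 and 206 CPM (LFC −0.28 ± 0.07, adjusted p = 0.0198), a call lost without replicate 3 or 4 of either group.

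The aryl hydrocarbon receptor list held 11 tested genes, of which 1 rose and 1 fell in PG/VG, at a median of 0.05. The share called was 18.2%, against 4.54% of all genes tested, and 0 or 1 were called when 1 library was left out. CYP1B1, a cytochrome P450 that oxidizes aromatic hydrocarbons, had 410, 381 and 355 CPM in control and 517, 452 and 527 CPM in PG/VG (LFC 0.39 ± 0.09, adjusted p = 0.0237). The groups did not overlap, yet the call was lost with the GC and length trends removed (adjusted p = 0.0603) and when any 1 library other than PG/VG replicate 3 was left out. CYP1A1, the most inducible member of the family, had 1.14, 1.30 and 2.76 CPM in control and 1.88, 1.42 and 2.62 CPM in PG/VG, an LFC of 0.18 (95% interval −0.43 to 0.80, adjusted p = 0.786). AHR itself fell by 0.32 ± 0.09 (adjusted p = 0.0347), with 35.2% of its exon length overlapping another gene, and lost its call without replicate 2 or 3 of either group.

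The carrier is also part of EC, and the test of EC vs. PG/VG gave the difference between the condensates directly. Across all genes 0.855% were called in that test and 13.5% in EC vs. control, and of the 727 DEGs of PG/VG vs. control 22 differed between EC and PG/VG. PG/VG vs. control and EC vs. control share the 3 control libraries, so their values are only set side by side. ARRDC3 was higher in EC, at 25.8, 26.9 and 24.95 CPM, than in PG/VG (LFC 0.47 ± 0.10, adjusted p = 0.0313). VASN, at 63.9, 61.7 and 55.7 CPM in EC, was also higher (LFC 0.33 ± 0.08, adjusted p = 0.0347), as was FUCA1, at 39.9, 39.5 and 69.0 CPM (LFC 0.48 ± 0.08, adjusted p = 0.00359). The difference in ARRDC3 was not called without PG/VG replicate 2 or 3 (adjusted p = 0.238 and 0.168). That in VASN was not called without any 1 of the PG/VG replicates or control replicate 3, whereas FUCA1 kept its call. Only PG/VG and control libraries were left out singly, so the weight of single EC libraries in EC vs. PG/VG was not tested, here or below.

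MMP1 and IL1A were higher in EC than in PG/VG. MMP1 stood at 225, 218 and 821 CPM in EC, with an LFC of −0.15 against control (95% interval −0.34 to 0.03) and of 0.50 ± 0.09 against PG/VG (adjusted p = 0.00691). IL1A had 14.4, 14.98 and 18.8 CPM in EC, an LFC of −0.03 against control (−0.28 to 0.22) and of 0.52 ± 0.12 against PG/VG (adjusted p = 0.0391). The difference between EC and PG/VG was lost for MMP1 without PG/VG replicate 2 or 4 (adjusted p = 0.0824 and 0.0595) and for IL1A without PG/VG replicate 2 or 3 (adjusted p = 0.411 and 0.0785). CYP1B1 reached 1606, 1638 and 1188 CPM in EC, an LFC of 1.56 ± 0.09 over PG/VG (adjusted p = 7.54e-08), and CYP1A1 reached 11.9, 11.2 and 9.47 CPM, an LFC of 2.47 ± 0.22 over PG/VG (adjusted p = 1.06e-05).

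**Figure D4:**
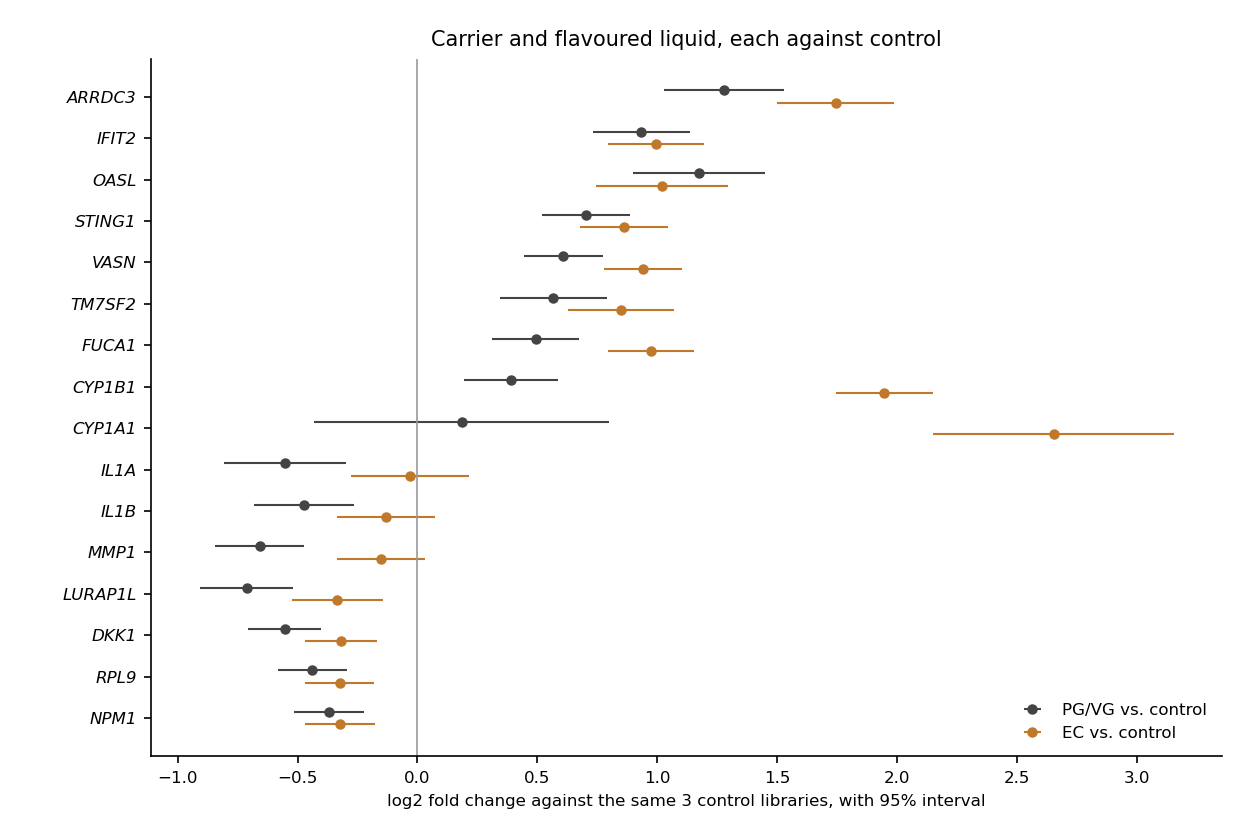
Log2 fold change against the same 3 control libraries for PG/VG (grey) and EC (orange), with points for the fitted value and bars for the 95% interval, for 16 genes. The intervals of IFIT2, OASL, TM7SF2, RPL9 and NPM1 overlap between the condensates, and those of CYP1A1 and CYP1B1 lie far apart. For MMP1, IL1A and IL1B the EC interval includes 0 whereas the PG/VG interval does not. IL1B did not pass the edgeR test of EC vs. PG/VG (adjusted p = 0.118).

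Neurotransmitter receptor, prostaglandin, autophagy, p53, hypoxia, actin and nucleotide synthesis genes completed the lists, and in each the number called changed with single libraries. The share called was 11.8% for neurotransmitter receptors and 12.5% for prostaglandin genes, against 4.54% of all genes tested. It was 3.33% to 7.14% in the other lists named here. Neurotransmitter receptors had 2 upregulated of 17 tested, all 17 with a positive LFC, and 1 or 2 were called with 1 library left out and 0 by DESeq2. Prostaglandin genes had 1 upregulated and 1 downregulated of 16 and autophagy genes 1 and 1 of 31, with 0 or 1 called in either list when 1 library was left out. Among 27 p53 targets 1 was upregulated, at a median LFC of 0.13 that was 0.01, 0.05 and 0.28 in batches 2, 3 and 4, and 0 to 2 were called with 1 library left out.

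Glycolysis and hypoxia genes had 2 upregulated of 28 and EGF receptor family genes 1 upregulated of 15, and DESeq2 called 0 in both lists. With 1 library left out, the first list had 1 call without PG/VG replicate 4 and otherwise 0 by edgeR, and the second had 0 in each case, against 8 and 3 at an unadjusted p under 0.05 with all libraries. Removing the GC and length trends gave 1 upregulated and 1 downregulated gene of glycolysis and hypoxia, 2 upregulated genes of the EGF receptor family, and 2 upregulated and 1 downregulated p53 targets. Actin and focal adhesion genes had 2 downregulated of 40 at a median of −0.09, one-carbon and nucleotide synthesis genes 1 downregulated of 30, and proteasome subunits 1 of 33. With 1 library left out the number called was 0 to 2 in the first of these lists and 0 or 1 in the others. With the GC and length trends removed, 9 actin and focal adhesion genes, 8 one-carbon and nucleotide synthesis genes and 4 proteasome subunits were downregulated.

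Of the markers of differentiated airway cells 4 of 18 could be tested, and edgeR and DESeq2 called 0, with 0 at an unadjusted p under 0.05. Mesenchymal markers had 2 upregulated and 2 downregulated of 12, against 0 and 4 with the GC and length trends removed. The share called was 33.3%, against 4.54% of all genes tested. The mesenchymal list had 1 call without PG/VG replicate 3 or 4 and 0 by edgeR without any 1 of the remaining libraries, against 6 at an unadjusted p under 0.05 with all libraries. Airway epithelial markers had 1 upregulated of 16 (6.25%), which was ITGB4, and 2 upregulated and 1 downregulated with the GC and length trends removed.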

How the data were processed

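RNA of BEAS-2B cells was sequenced by the authors as poly(A)-selected libraries, 3 per condition. Reads were trimmed with fastp, aligned with STAR to GRCh38.p12 and counted on exons with featureCounts of Subread 2.0.4, ignoring multi-mapping and multi-overlapping reads; the strand setting is not given in the sources used here. The authors deposited these counts unadjusted, for 63187 genes, that is, before ComBat-Seq, their low-count filter and DESeq2. A gene entered the tests when 3 or more of the 9 libraries had 10 or more counts of it. Testing was done with edgeR 4.0.16 in R 4.3.3, by TMM scaling and 1 quasi-likelihood fit of all 9 libraries with condition and batch as terms, and p-values were adjusted by Benjamini-Hochberg over the genes tested, with a threshold of 0.05. The SE of an LFC is its size divided by the root of the F statistic. CPM use TMM-scaled library sizes.

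Same-numbered PG/VG and control libraries deviated together from their group means (r = 0.348 to 0.671 in 3 pairs, −0.522 to 0.380 in the 6 other pairs). The negative values all came from pairs with a replicate 4 library. Control replicate 3 with PG/VG replicate 2 gave 0.380, above the 0.348 of the replicate 2 pair. These values thus set batch 4 apart but do not separate batch 2 from batch 3. The number served as a replicate block, and the labels also name it as the batch. No replicate pair of a group was a duplicate, the lowest chi-square per gene being 3.66. Of the identifiers, 62666 matched GENCODE 44, which gave names and the exon overlap of genes.

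The comparison, its members and the gene lists were chosen with earlier results of these data known. Genes were named by rule: the 10 DEGs with the smallest p in each direction and the 8 with the largest rises and falls, among DEGs with 1 direction in all 3 batches and at least 20 counts in each of the 6 libraries, then up to 4 genes with the smallest p of each list (all members where at most 12 were tested), and genes the study names. Not every gene under the rule is described, and some results are not reported here. The other upregulated genes whose promoters are shown, OAS3 and SAMD9, and the marker genes were named after their values were seen.

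Alternatives were no replicate block, RLE or library-size scaling, and a filter of at least 1 count or of 10 counts in every library. DESeq2 1.42.0 with batch, ComBat-Seq of sva 3.50.0 with DESeq2, and PG/VG and control alone were also run. Each of the 6 PG/VG and control libraries was left out in turn, and so was each batch. No EC library was left out singly, so statements on 1 library left out cover only these 6. An adjusted p under 0.01 and a test against an absolute LFC of 0.2 were also used. After seeing the data, thinning to the smallest library and removal of GC and length trends with mgcv 1.9.3 were added. The edgeR and DESeq2 fits with batch were tested on simulated data.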

Additional observations from a re-analysis of the deposited data

How the results depend on the processing

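Every gene whose call in PG/VG vs. control is described kept its direction under all alternatives run. The number of DEGs, 727 with 422 upregulated and 305 downregulated, depended on how the batches were treated. Without the replicate block 1 gene was called, upregulated, and 0 downregulated, at 3225 genes with an unadjusted p under 0.05 in the blocked fit, and the calls therefore rest on comparing libraries within batches. ComBat-Seq with DESeq2 gave 1682 DEGs (769 up, 913 down), PG/VG and control alone 1179 (579 up, 600 down), and removal of GC and length trends 1215 (421 up, 794 down). Leaving out batch 2, 3 or 4 gave 319 (165 up, 154 down), 249 (137 up, 112 down) and 324 (169 up, 155 down). Leaving out 1 library gave 192 to 666 DEGs, 130 to 388 of them upregulated and 62 to 278 downregulated, with the lowest counts without PG/VG replicate 2. An adjusted p under 0.01 left 226 (146 up, 80 down) and a test against an absolute LFC of 0.2 left 116 (85 up, 31 down). Other scalings and filters gave 719 to 936 DEGs. With 10 counts required in every library, the SD of log2 differences was 0.279, 0.241 and 0.269 in batches 2, 3 and 4, as fewer genes with low counts were tested.

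Of the 70 called genes described, 42 kept their call without PG/VG replicate 2, 54 without control replicate 3, 1 without the replicate block, 67 with library size as the only scaling, 65 with GC and length trends removed and 70 with DESeq2 or thinned counts. Values near 0 changed sign. The LFC of ARRDC4 was −0.0415 without batch 4 and −0.0385 to 0.171 with 1 library left out, that of TXNIP was −0.00286 without batch 4 and −0.0388 to 0.163 with 1 library left out, and that of CYP1A1 was −0.0704 to 0.698 with 1 library left out. The PG/VG libraries were deeper, and with counts thinned to the smallest library 769 DEGs were called. With 3 replicates per group, the intervals limit the detection of small changes, and a p that misses the threshold does not show that a gene did not change.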
